A study of Homo sapiens with 8 samples.

Results

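The 10 genes LCN2, SLPI, PI3, WFDC2, S100A7, S100A8, S100A9, S100A12, DEFB1 and RNASE7 encode antimicrobial and antiprotease proteins of surface epithelia, and all 10 are among the 34415 gene symbols counted. They were chosen by name, with the difference between the siRNAs in these same libraries already known, so that difference is described for them and no p-value is given. The RNA came from HaCaT, a line of human epidermal keratinocytes that immortalised without a transforming agent. In 4 cultures the cells carried siETV4, a small interfering RNA against the ETS-family transcription factor ETV4, and in 4 cultures siNC, a negative-control siRNA. All 8 cultures, taken between passages 21 and 33, had been grown in medium with 5.5 mM glucose, were then kept 96 h in 35 mM glucose and had been transfected for 48 h. The submitters describe the 4 cultures of a group as independent biological replicates. They are cultures of 1 cell line, the siRNAs are known here by name only, and libraries at normal glucose were not analysed here.

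Epithelial cells secrete a set of proteins that hold back microbes and protect the tissue from its own defence. LCN2 (lipocalin 2) binds bacterial iron-carrying siderophores. SLPI and PI3 (elafin) inhibit neutrophil elastase through WAP domains, a cysteine-rich fold, and WFDC2 carries the same fold. S100A8 and S100A9 pair as calprotectin, which withholds zinc and manganese from microbes, and S100A7 (psoriasin) and S100A12 are related calcium-binding proteins that also bind metals. DEFB1 is a beta-defensin made constitutively by many epithelia, and RNASE7 is a cationic ribonuclease that kills bacteria. In skin several of these genes are induced by interleukin-1, interleukin-17 and other signals that act through NF-kB and C/EBP factors, and S100A7, S100A8 and S100A9 are known for their high levels in psoriasis.

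The sequences upstream of LCN2 and S100A9 are shown because these are the most abundant of the 10 genes that have a window in the RefSeq promoter table (GRCh38.p14, also called hg38). Each run gives the 250 bases before the start site, 5′ to 3′ on the gene's strand, at chr9:128149203-128149452 (plus strand) for LCN2 and at chr1:153357604-153357853 (plus strand) for S100A9. Capitals mark matches, on either strand, to the NF-kB consensus, to TTNNGNAA (C/EBP) or to TGANTCA (AP-1).
LCN2: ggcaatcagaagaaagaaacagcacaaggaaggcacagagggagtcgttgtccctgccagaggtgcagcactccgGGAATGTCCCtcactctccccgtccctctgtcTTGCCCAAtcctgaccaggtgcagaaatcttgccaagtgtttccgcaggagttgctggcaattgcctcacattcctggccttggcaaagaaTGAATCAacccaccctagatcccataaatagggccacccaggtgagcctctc
S100A9: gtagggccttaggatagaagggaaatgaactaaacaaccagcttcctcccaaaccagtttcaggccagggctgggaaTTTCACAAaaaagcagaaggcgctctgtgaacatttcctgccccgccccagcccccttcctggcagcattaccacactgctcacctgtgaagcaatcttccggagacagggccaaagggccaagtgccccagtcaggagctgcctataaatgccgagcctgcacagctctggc
The LCN2 window held 1 NF-kB match, whose left end lies at -175 from the start site, 1 C/EBP match at -143 and 1 AP-1 match at -52. The S100A9 window held 1 C/EBP match at -173 and none of the other 2 motifs. The 7 genes whose windows were searched were LCN2, S100A7, S100A8, S100A9, S100A12, RNASE7 and WFDC2. Of these genes 1 held the NF-kB consensus, 6 the C/EBP motif and 3 the AP-1 motif. No window of SLPI, PI3 or DEFB1 was searched, so these counts leave them out. S100A8 has 3 overlapping windows in the table and was counted if any of them held a match, which 2 of the 3 did for C/EBP, while the other 6 genes have 1 window each. Over 27305 single promoter windows of the same length the shares were 5.05% for the NF-kB consensus, 33.6% for TTNNGNAA and 6.60% for TGANTCA. The short ETS core GGAA, which is in 92.8% of promoters, occurred 4 times in LCN2, where 1 copy overlaps the NF-kB match, and 6 times in S100A9. The longer CCGGAA, which contains the core and is in 14.8% of promoters, was in the S100A9 window at -76 and in no other of the 7 genes.

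The libraries held between 35057643 and 41657753 counts, and levels are given as CPM, counts scaled to a common library total and by TMM factors. The siRNA target ETV4 stood at 3.10, 2.71, 1.83 and 2.80 CPM in siETV4 replicates 1 to 4, against 32.0, 29.7, 31.1 and 19.8 CPM in siNC replicates 1 to 4, and fell by 3.43 on the log2 scale (SE 0.21, edgeR adjusted p 4.64e-05). All 8 keratinocyte markers were detected, with a summed level of 4056 to 4539 CPM in siETV4 libraries and 4349 to 4821 CPM in siNC libraries. Neutrophils also make LCN2, SLPI and calprotectin. Of 12 neutrophil and myeloid markers, PTPRC, ELANE, FCGR3B, CSF3R, CEACAM8 and TYROBP were at 0 in every library, and the summed level of 22.7 to 25.4 CPM in siETV4 libraries and 17.1 to 25.1 CPM in siNC libraries was mostly CD68, at 21.8 to 24.1 and 16.1 to 23.6 CPM. Summed markers of fibroblasts came to 4.16 to 5.34 CPM in siETV4 and 3.42 to 6.44 CPM in siNC, and of melanocytes to 1.15 to 2.02 and 1.31 to 2.29 CPM. Those of endothelium came to 15.2 to 21.9 and 14 to 18.3 CPM, mostly CDH5, at 14.7 to 21 and 13.3 to 17.1 CPM. Libraries also differed in a trend with GC content. It is given as Spearman's rho, over genes, between GC content and a library's log2 CPM minus the gene's mean over the 8 libraries. In siETV4 replicates 1 to 4 it was -0.65, 0.21, -0.58 and 0.02, and in siNC replicates 1 to 4 it was 0.56, 0.53, 0.64 and -0.60, so siNC replicate 4 stood apart from the other siNC libraries. The 9 detected genes of the set had a GC content of 48.3 to 56.8%, against a median of 48.4% over the tested genes, and the part of these trends in the differences below was examined only by the fits that remove them.

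LCN2, at chr9:128149453-128153453 (GRCh38, as are all positions here), was by far the most abundant gene of the set. It stood at 561, 582, 556 and 587 CPM in siETV4 replicates 1 to 4, against 472, 439, 472 and 388 CPM in siNC replicates 1 to 4. Every siETV4 library lay above every siNC library, and siNC replicate 4 was the lowest of all 8. The means were 571 ± 15.4 CPM in siETV4 and 443 ± 39.5 CPM in siNC (SD, n = 4 each). The log2 fold change was 0.37 (SE 0.09), or 1.29-fold. By mean FPKM, the authors' fragment counts scaled by library total and transcript length, LCN2 ranked 104 of the 19320 genes above 0 in siETV4 and 127 of the 19106 above 0 in siNC. In bulk RNA, more cells that express a gene and more RNA per cell cannot be told apart, here and for the genes that follow.

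Among the antiproteases, PI3 showed the largest difference of the tested genes in the set. The elafin gene stood at 21.4, 21.2, 26.3 and 26.2 CPM in siETV4 replicates 1 to 4, against 14, 10.6, 12.9 and 10.5 CPM in siNC replicates 1 to 4. The groups did not overlap, and the lowest siETV4 library was above the highest siNC library by more than the SD of either group, 2.85 CPM in siETV4 and 1.75 CPM in siNC. The log2 fold change was 0.99 (SE 0.15), or 1.98-fold. SLPI, which inhibits elastase and cathepsin G, stood at 18.5, 18.9, 17.3 and 18.7 CPM in siETV4 libraries and at 14.1, 14.7, 15.3 and 12.6 CPM in siNC libraries. Its groups did not overlap either, by a smaller margin, with a log2 fold change of 0.37 (SE 0.12). WFDC2, a WAP-domain protein whose antiprotease activity is less well defined, stood at 1.75, 0.911, 1.35 and 1.93 CPM in siETV4 libraries and at 1.44, 1.37, 1.64 and 1.02 CPM in siNC libraries. These groups overlapped throughout, and the log2 fold change was 0.12 (SE 0.29). The ratio of the elastase inhibitors did not overlap between the groups either. PI3 over SLPI in FPKM was 1.25, 1.21, 1.65 and 1.52 in siETV4 libraries and 1.07, 0.776, 0.909 and 0.895 in siNC libraries.

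The RNAs of the calprotectin subunits were counted at very unequal levels. S100A9 stood at 17.7, 18.3, 19.3 and 18.0 CPM in siETV4 libraries, against 14.3, 10.7, 15.8 and 14 CPM in siNC libraries. The siETV4 libraries lay close together above all siNC libraries, with a log2 fold change of 0.42 (SE 0.14). S100A8 stood at 3.03, 2.34, 2.43 and 1.86 CPM in siETV4 libraries and at 1.98, 0.297, 2.11 and 1.89 CPM in siNC libraries. The groups overlapped, and siNC replicate 2, with 10 counts where the other siNC libraries had 78 to 84, was far below the rest. The log2 fold change of S100A8 was 0.61 (SE 0.43) with all 8 libraries and 0.28 without siNC replicate 2. In FPKM, S100A8 reached 0.0816 to 0.135 of the S100A9 level in siETV4 libraries, and 0.109, 0.0219, 0.106 and 0.107 of it in siNC libraries. The RefSeq span of S100A8 overlaps that of S100A7A, and how reads there were counted could affect this ratio.

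S100A7 stood at 5.43, 4.19, 2.69 and 4.05 CPM in siETV4 libraries, against 3.71, 1.75, 2.72 and 3.05 CPM in siNC libraries. The groups overlapped, the lowest library was again siNC replicate 2, and the log2 fold change of 0.54 (SE 0.26) was 0.37 without that library and also 0.37 without siETV4 replicate 1. S100A7 has a near-identical neighbour, S100A7A, which was given 49 counts over the 8 libraries, and no source used here states how reads shared by the pair were counted. S100A12, known chiefly from neutrophils, had no count in any library, which allows a level of up to 0.0720 to 0.0856 CPM by library total (3 counts per library, counting error only).

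RNASE7 was low and DEFB1 was near the limit of detection. RNASE7, at chr14:21042362-21044233, stood at 1.44, 1.67, 2.14 and 2.03 CPM in siETV4 libraries and at 0.927, 1.87, 1.66 and 1.36 CPM in siNC libraries. These groups overlapped, with a log2 fold change of 0.33 (SE 0.27). DEFB1 had 6, 20, 10 and 11 counts in siETV4 libraries and 8, 1, 9 and 5 counts in siNC libraries, too few to pass the filter on low counts, and its groups overlapped. The single DEFB1 count of siNC replicate 2 was the lowest of the 8.

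**Figure D1:**
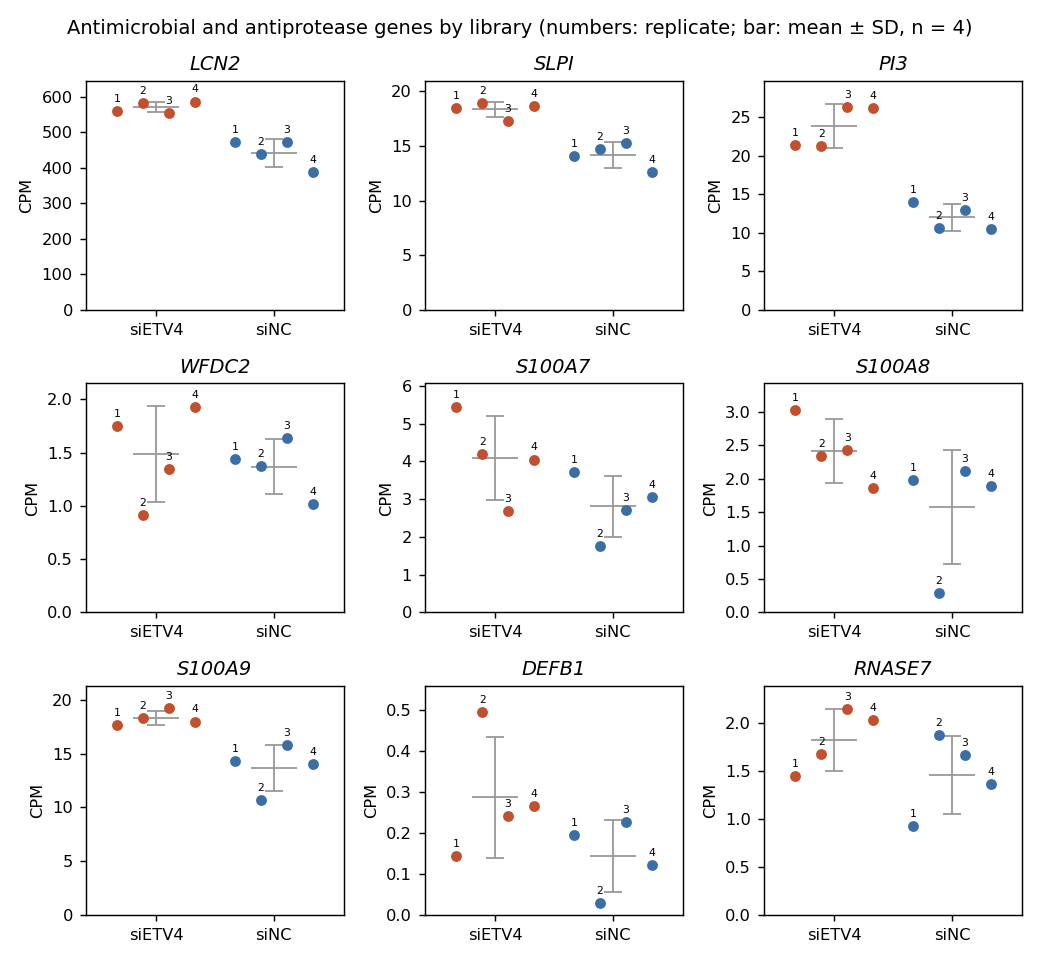
Level of each of the 9 detected genes (y axis, CPM, from 0) in the 4 siETV4 and 4 siNC libraries. Points are libraries labelled by replicate number and grey bars are mean ± SD. LCN2, SLPI, PI3 and S100A9 do not overlap between the groups, and siNC replicate 2 is the lowest library for S100A7, S100A8, S100A9 and DEFB1.

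Levels were ordered per length, in FPKM. In siETV4 libraries LCN2 (707 ± 14.6 FPKM) was followed by PI3 (43.8 ± 6.01), S100A9 (32.5 ± 1.81), SLPI (31.2 ± 0.728), S100A7 (9.66 ± 2.58), S100A8 (3.38 ± 0.681), WFDC2 (2.67 ± 0.831), RNASE7 (1.36 ± 0.260) and DEFB1 (0.768 ± 0.379), all as mean FPKM ± SD with n = 4. In siNC libraries LCN2 (531 ± 38.6 FPKM) came before S100A9 (23.5 ± 3.87), SLPI (23.4 ± 1.35), PI3 (21.4 ± 3.02), S100A7 (6.47 ± 1.95), WFDC2 (2.36 ± 0.405), S100A8 (2.14 ± 1.17), RNASE7 (1.05 ± 0.281) and DEFB1 (0.377 ± 0.227). PI3 was thus the second gene of the set in siETV4, above S100A9 in all 4 libraries, and lay within the range of its neighbours SLPI and S100A9 in siNC. Ranges overlapped between S100A9 and SLPI in both groups, and between S100A8, WFDC2 and RNASE7 in the order of each group. LCN2 over PI3 in FPKM was 14.2 to 18.5 in siETV4 libraries and 22.7 to 27.9 in siNC libraries. LCN2 and S100A7 stood clear of the next gene below them in both groups.

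**Figure D2:**
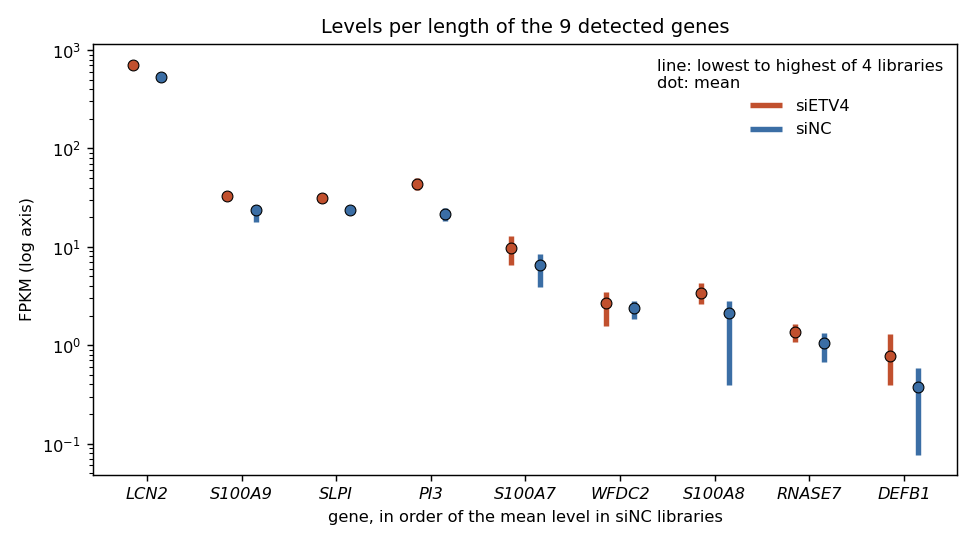
Level per length (y axis, FPKM on a log axis) of the 9 detected genes, in the order of their mean in siNC libraries. Lines run from the lowest to the highest of 4 libraries and dots are means, with siETV4 left of siNC for each gene. LCN2 lies far above every other gene, at 695 to 728 FPKM in siETV4 and 485 to 566 FPKM in siNC, and PI3 changes place between the groups.

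Set side by side, the 8 tested genes had log2 fold changes between 0.12 (WFDC2) and 0.99 (PI3), with a median of 0.40, against a median of -0.01 over the 13572 genes tested. All 8 values were above 0, as were 48.4% of the values of all tested genes. Groups did not overlap, with siETV4 above, for 4 of the 8 (LCN2, SLPI, PI3 and S100A9) and for 2.62% of the tested genes. By the quasi-likelihood test of edgeR, adjusted by Benjamini-Hochberg, 1 of the 8 passed an adjusted p of 0.05, PI3, where 0.236% of the tested genes passed in either direction and 0.118% passed as higher in siETV4. These counts describe the contrast on which the set was drawn up. The 32 genes past the threshold were 16 higher and 16 lower in siETV4, or 16 higher and 10 lower with library size alone as the scaling.

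The number of genes past the threshold turned on the libraries and the fit. PI3 passed when siETV4 replicate 2, siNC replicate 1 or siNC replicate 4 was left out (0.0943 to 16.9% of tested genes passed), and did not pass when siETV4 replicate 1, 3 or 4 or siNC replicate 2 or 3 was (0.0654 to 0.116% passed). In these last 5 fits its log2 fold change was 0.93 to 1.04. Without siNC replicate 4, LCN2 and PI3 passed, where 16.9% of all tested genes did. After removal of each library's trends with GC content and length, LCN2, SLPI and PI3 passed, at log2 fold changes of 0.49, 0.46 and 1.10, where 1.76% of all tested genes did. DESeq2 called LCN2 and PI3, where it called 1.12% of its genes.

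**Figure D3:**
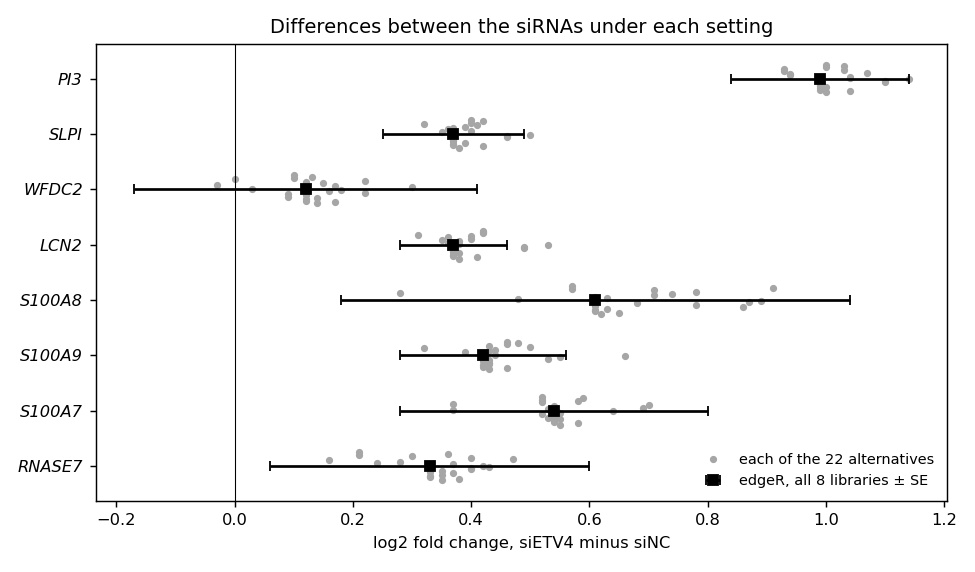
Log2 fold change, siETV4 minus siNC (x axis), of the 8 tested genes. Black squares with bars are edgeR estimates ± SE from all 8 libraries and grey dots are the 22 alternative fits. PI3 stays between 0.93 and 1.14, and WFDC2 lies on both sides of 0.

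Most other antimicrobial genes had too few counts to be tested. Of 28 further antimicrobial genes 13 were at 0 in every library, among them CAMP (cathelicidin), DCD (dermcidin) and DEFB103A and DEFB103B (beta-defensin 3), and 6 were tested. No source used here states how reads shared by DEFB103A and DEFB103B were counted, so their 0 need not mean absence. By edgeR 0 of the 6 passed, 1 was higher and 0 lower at an unadjusted p under 0.05, and DESeq2 and limma-voom called 0. Their median log2 fold change was -0.20. ADM (adrenomedullin), the highest in CPM, averaged 58.7 ± 4.85 CPM in siETV4 and 65.3 ± 8.53 CPM in siNC (SD, n = 4 each). CCL20, a chemokine with antimicrobial activity, stood at 2.07, 1.85, 1.61 and 2.10 CPM in siETV4 libraries and at 0.659, 0.178, 0.378 and 1.43 CPM in siNC libraries. Its groups did not overlap, the log2 fold change was 1.51 (SE 0.48), and the edgeR adjusted p was 0.276, or 0.00892 without siNC replicate 4, when 16.9% of all tested genes passed.

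Among other S100 genes most values lay below 0, and fewer did once trends with GC content and length were removed. Of 11 tested, 2 had a log2 fold change above 0, where 48.4% of all tested genes did. These were S100P and S100A2, the latter at 0.00 after rounding. The median was -0.19, and 0 passed edgeR's threshold. At an unadjusted p under 0.05, 1 was higher and 3 were lower, DESeq2 called 1 higher and limma-voom 0, and edgeR called 1 higher and 3 lower without siNC replicate 4, against 16.9% of all tested genes. After removal of each library's trends with GC content and length, edgeR called 0 higher and 1 lower (S100A6, log2 fold change -0.24), against 1.76% of all tested genes. In that fit S100A2, S100A14 and S100P were above 0, at 0.11, 0.02 and 2.12. S100A3, S100A4, S100A5, S100A13 and S100A16 were below 0, at -0.57, -0.20, -1.19, -0.14 and -0.06. S100A11 and S100A10, which bind annexins and had the highest CPM of the list, had log2 fold changes of -0.03 (SE 0.10) and -0.11 (SE 0.11). With those trends removed the values were 0.08 and 0.00. They averaged 779 ± 65.8 and 736 ± 80.7 CPM in siETV4 libraries, and 797 ± 91.5 and 794 ± 95 CPM in siNC libraries (SD, n = 4 each). Of the set, S100A9, S100A12, S100A8 and S100A7 lie next to each other on chromosome 1, with S100A7A among them, from S100A9 at chr1:153357854-153361023 to S100A7 at chr1:153457744-153460651. The RefSeq span of S100A8 overlaps that of S100A7A, and no source used here states whether counting used strand.

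Protease inhibitors outside the set included 1 gene past the threshold. SERPINA3 (antichymotrypsin, an inhibitor of cathepsin G) rose in siETV4 libraries, to 3.51, 4.61, 3.10 and 4.54 CPM, against 0.854, 1.69, 1.13 and 1.40 CPM in siNC libraries. Its log2 fold change was 1.63 (SE 0.25) with an edgeR adjusted p of 0.0247, and it passed when siNC replicate 2 or 4 was left out, but not when any of the other 6 libraries was. Of 13 inhibitors tested, 1 was higher and 12 did not pass, with a median log2 fold change of 0.32, where 0.118% of all tested genes passed as higher. At an unadjusted p under 0.05, 5 were higher and 1 lower. DESeq2 called 3 higher, against 0.637% of its genes, and limma-voom 1, against 0.162%. With trends with GC content and length removed edgeR called 3 higher, against 0.882%. Groups did not overlap for 5 of the 13 inhibitors with siETV4 above and 1 with siETV4 below, against 2.62% and 3.93% of tested genes. Without siNC replicate 4, edgeR called 5 of them higher and 1 lower, in a fit that called 16.9% of all tested genes. The log2 fold changes of SPINT2 and CST3, the highest of the list in CPM, were -0.04 (SE 0.11) and -0.09 (SE 0.11). PI3 (chr20:45174902-45176544), SLPI (chr20:45252239-45254564) and WFDC2 (chr20:45469753-45481532) lie in a stretch of chromosome 20 between WFDC5 and WFDC3 in which 26 genes were looked up. Of these, 12 were at 0 in every library, 8 were tested and PI3 alone passed. WFDC3, the other WAP-domain gene tested there, had a log2 fold change of 0.32, and SDC4, a heparan sulphate proteoglycan between SLPI and WFDC2, of -0.05.

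Neutrophil and mast cell proteases (ELANE, PRTN3, CTSG, CMA1 and TPSAB1), among them the elastase that SLPI and PI3 inhibit, were at 0 in every library. Of 5 epidermal proteases tested 0 passed edgeR's threshold, 1 was lower at an unadjusted p under 0.05, and DESeq2 called that many lower and limma-voom 0. ST14 (matriptase) had a log2 fold change of 0.02 (SE 0.10) and KLK5, a desquamation protease, of -0.09 (SE 0.11). Of 9 tested partners, receptors and iron-handling genes 0 passed, 1 was higher and 1 lower at an unadjusted p under 0.05, and DESeq2 and limma-voom called 0. Without siNC replicate 4, edgeR called 1 epidermal protease lower and 3 genes of the partner list higher, where 16.9% of all tested genes were called and 12% as higher. FTH1, the ferritin heavy chain, averaged 7327 ± 427 CPM in siETV4 and 6828 ± 909 CPM in siNC (SD, n = 4 each), and BSG (basigin), a receptor for S100A9, 1312 ± 89.9 and 1389 ± 128 CPM. The LCN2 receptors SLC22A17 and LRP2 were too low to be tested.

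The receptors, adaptors and transcription factors that induce these genes had medians close to 0. Of 22 receptors and adaptors tested 0 passed edgeR's threshold and the median log2 fold change was 0.04. At an unadjusted p under 0.05, 3 were higher and 4 lower, DESeq2 called 1 lower and limma-voom 0. The DESeq2 call was IL22RA1, named after its values were seen (DESeq2 log2 fold change -0.74, adjusted p 0.00311, edgeR adjusted p 0.0799). IRAK1, a kinase of interleukin-1 signalling, had a log2 fold change of -0.38 (SE 0.12, edgeR adjusted p 0.276) and EGFR of 0.04 (SE 0.16). Of 18 transcription factors 0 passed, with a median of -0.02, 2 higher and 2 lower at an unadjusted p under 0.05 and 0 called by DESeq2 or limma-voom. Without siNC replicate 4, edgeR called 4 receptors or adaptors higher and 4 lower, and 1 transcription factor higher and 2 lower, where 16.9% of all tested genes were called. With trends with GC content and length removed, it called 1 receptor or adaptor lower and 1 transcription factor higher, where 1.76% of all were called. ELF3, an epithelial ETS factor, had a log2 fold change of -0.10 (SE 0.08) and STAT3 of 0.01 (SE 0.08).

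Genes that interleukin-17 and NF-kB induce alongside LCN2 in keratinocytes had the highest median of the 9 further lists, 0.51, with 20 of 24 tested genes above 0. By edgeR 0 passed over all genes, while 14 were higher and 0 lower at an unadjusted p under 0.05, against 787 higher and 921 lower of all 13572 tested genes. DESeq2 called 7 of the 24 higher, where it called 0.637% of all its genes higher, and limma-voom called 1, where it called 0.162%. Without siNC replicate 4 edgeR called 11 higher, where 12% of all tested genes were higher, and once trends with GC content and length were taken out it called 6 higher, where 0.882% of all were. The 2 highest in CPM, C3 and NFKBIA, had log2 fold changes of 0.33 (SE 0.14, edgeR adjusted p 0.390) and -0.01 (SE 0.08, edgeR adjusted p 0.979). CXCL8, a neutrophil attractant named after its values were seen, stood at 38.8, 30.2, 33.5 and 30.8 CPM in siETV4 libraries and at 19.9, 16.7, 15.5 and 23.4 CPM in siNC libraries (edgeR adjusted p 0.0623). Differentiation genes, with which S100A7 and RNASE7 are known to be expressed in epidermis, had a median of -0.07 over 8 tested genes of 20 listed. SPRR1A, SPRR1B, SPRR2A and CNFN, among the 8, averaged under 1 CPM in both groups, so the median rests partly on low counts. By edgeR 0 of the 8 passed, 1 was lower at an unadjusted p under 0.05, and DESeq2 and limma-voom called 0, while edgeR called 1 lower without siNC replicate 4 (16.9% of all tested genes). KRT10 averaged 52.4 ± 5.17 CPM in siETV4 and 64.9 ± 4.75 CPM in siNC (SD, n = 4 each; log2 fold change -0.31, SE 0.10) and IVL (involucrin) 40.9 ± 3.98 and 34.3 ± 4.57 CPM.

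**Figure D4:**
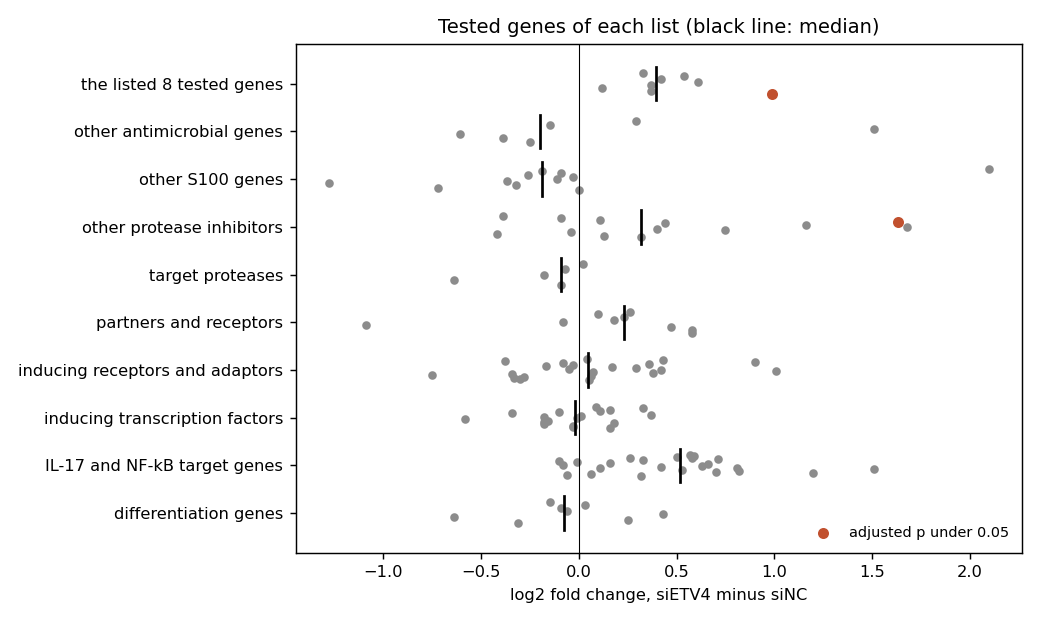
Log2 fold change, siETV4 minus siNC (x axis), of every tested gene of the set and of 9 further lists (rows). Black lines are medians and coloured dots pass an edgeR adjusted p of 0.05. PI3 and SERPINA3 are the coloured dots, and the medians run from -0.20 to 0.51.

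The genes whose levels followed LCN2 most closely across the 8 libraries, by Pearson correlation of log2 CPM among 10987 genes whose log2 CPM averaged 1 or more, were IL32 (0.983), MARCHF2 (0.976), KRT17 (0.973), CCL5 (0.972) and MYL9 (0.971). SLPI came next in this order (0.970) and PI3 ranked 8 (0.943), while S100A9 ranked 114 (0.797) and S100A7 549 (0.576). These values share the difference between the groups. KRT17, a keratin of wounded epidermis, averaged 406 CPM in siETV4 and 210 CPM in siNC, and IL32, an inflammatory cytokine, 17 and 10.5 CPM. With the mean of each group removed, SLPI ranked 896 (0.817) and PI3 2877 (0.606), and the 5 closest genes were ADRA1B, LARS2, TMC6, FBXL19 and MYD88 (0.981 to 0.990). After that step LCN2 deviated most in siNC replicate 4, at -0.18 on the log2 scale, against -0.04 to 0.10 in the other libraries. That library also stood apart in its trend with GC content, so these ranks cannot tell shared regulation from a shift of 1 library.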

How the data were processed

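Total RNA from 8 HaCaT cultures, 4 with siETV4 and 4 with siNC, was sequenced, and groups and replicate numbers come from the sample titles. The authors deposited raw counts per gene symbol and a table of FPKM values. Per the submitters' processing notes the build was hg38, and R 3.2.0 is listed there. The siRNA sequences, aligner, counter, annotation and strandedness were not stated in the sources used here. The deposited FPKM equals the count over the library total and a gene length for 20584 of 20585 genes (relative tolerance 1e-06), so it holds no normalization between libraries.

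Counts were tested in R 4.3.3 with edgeR 4.0.16 (filterByExpr with a minimum count of 10, TMM, quasi-likelihood test, siRNA as the only term), with Benjamini-Hochberg adjustment over the 13572 genes kept and calls at an adjusted p under 0.05. Differences run siETV4 minus siNC on the log2 scale. The 10 genes, the other lists and the rule for named genes were chosen with earlier results of these data known. The rule takes all 10, ETV4, and from each list up to 4 genes past the threshold or its 2 most abundant tested genes, and the 5 genes most like LCN2. Other lists served as a description by count and median. Alternatives were other scalings and filters, DESeq2 1.42.0, limma 3.58.1 (voom, or trend on log2 FPKM plus 1 or 0.1, with a mean FPKM of at least 0.5 or all genes), a robust fit, a replicate block, GC content and length offsets (splines with 5 degrees of freedom, GC content from GENCODE transcripts for 91.9% of tested genes), and each library left out. The tests were checked on simulated counts, where edgeR recovered 36.4% of 1.5-fold, 69.7% of 2-fold and 93.8% of 4-fold changes, with 12 false calls. Changes under 1.5-fold and library trends with GC content were not simulated. No pair of libraries agreed within sampling noise (chi-square per degree of freedom at least 10.0). At the mean depth 1 CPM is 40.1 counts.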

Additional observations from a re-analysis of the deposited data

Results flagged for a closer look

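A check covered 76 groups of 4 libraries, over 39 genes, namely the set, ETV4 and the genes named by rule from the lists. Genes named for their likeness to LCN2 were not among them. In 6 groups a library's gap to the next took up more of the group's range than Dixon's 95% limit allows, where chance gives about 5% of groups. Among the antimicrobial genes this was S100A8, at 0.297 CPM in siNC replicate 2 against 1.89 to 2.11 CPM in the other siNC libraries. The others were outside the set. In siNC replicate 4, S100A11 was at 661 CPM, CST3 at 231 CPM and BSG at 1198 CPM, each below the other siNC libraries. In siETV4 replicate 2, KLK5 was at 322 CPM, above the other siETV4 libraries, and in siNC replicate 3, COL3A1 was at 0.126 CPM, below the other siNC libraries.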

How the results depend on the processing

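The log2 fold changes of LCN2, SLPI, PI3, S100A7, S100A8, S100A9 and RNASE7 stayed above 0 in all 22 alternatives, and that of WFDC2 ranged from -0.03 to 0.30. Calls over all genes numbered 32 (16 higher, 16 lower), and 1 of the set. With DESeq2 they were 164 (93 higher, 71 lower), 2 of the set; without a filter 54 (30 higher); with library size alone 10 were lower. On FPKM they were 59 (37 higher) with either pseudocount, 3 of the set, and without the filter on FPKM 31, 2 of the set. With GC content and length offsets they were 219 (110 higher, 109 lower), 3 of the set, and without siNC replicate 4 as well 811 (376 higher, 435 lower), 4 of the set. Leaving out 1 library gave 9 to 2327 calls (5 to 1654 higher, 4 to 673 lower), 0 to 2 of the set. The replicate number as a block gave 4 calls (2 higher, 2 lower), 0 of the set, and the block with the offsets 100 (46 higher, 54 lower), 2 of the set. The labels do not state whether same-numbered cultures were paired. Deviations of same-numbered libraries from their group means correlated at -0.09, 0.30, -0.14 and -0.19. Of the 8 libraries 2 (both replicate 2) correlated best with their own number. These deviations also carry each library's trend with GC content, so they cannot decide whether the cultures were paired. The cause of the shifts in the number of calls was not tested. At 1 to 20 counts per library DEFB1 is limited by depth.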

Other observations

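Genes below were named after their values were seen. S100P, an S100 gene outside the psoriasin and calprotectin locus, stood at 1.47, 1.75, 1.13 and 1.88 CPM in siETV4 libraries and at 0.171, 0.178, 0.302 and 0.775 CPM in siNC libraries. Its log2 fold change was 2.10 (SE 0.47) with an edgeR adjusted p of 0.132, or 0.00525 without siNC replicate 4. By DESeq2 S100P was higher (adjusted p 0.00243). The protease inhibitor SERPINB3, squamous cell carcinoma antigen 1, stood at 6.44, 4.48, 6.38 and 4.88 CPM in siETV4 libraries and at 1.93, 0.446, 1.94 and 2.54 CPM in siNC libraries (log2 fold change 1.68, SE 0.38, edgeR adjusted p 0.129), and was higher by DESeq2 (adjusted p 0.00101). SERPINB3 has the near-identical paralog SERPINB4, with means of 2.98 CPM in siETV4 and 1.32 CPM in siNC, and no source used here states how shared reads were counted. Like S100A8 and S100A7, SERPINB3 and SERPINB4 were lowest in siNC replicate 2. KLK7, a desquamation protease, stood at 9.57, 9.21, 9.38 and 9.53 CPM in siETV4 libraries and at 16.5, 16.1, 13.4 and 12.5 CPM in siNC libraries (log2 fold change -0.64, SE 0.13, edgeR adjusted p 0.110), and was lower by DESeq2 (adjusted p 0.00532).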
